A study of Mus musculus with 6 samples.

Results

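The genes described here build the epithelial basement membrane and the junctions that fasten keratinocytes to it. They were taken by symbol from a fixed list of 36 laminin, type IV collagen, nidogen, integrin, linker and further matrix genes, all 36 of them found among the 24453 symbols of the count files. The 6 RNA-seq libraries come from sorted back skin cells of mice on the day of birth (postnatal day 0), labelled as hair follicle cells, with 3 libraries of the genotype Ring1a-/- Ring1b-/I53A (called I53A mutants below) and 3 libraries of animals labelled only as control. The mutants are labelled as null for Ring1a, carry 1 Ring1b null allele and have as their other Ring1b allele I53A, which is known to weaken the ubiquitin ligase activity of this Polycomb repressive complex 1 subunit towards histone H2A. No group separates these 3 changes, and no Cre driver, strain or allele of the controls is named in the sources used here. Nothing in the labels says that the libraries of a group came from separate animals, so the p-values measure the spread between these libraries, which may in part be technical.

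The basement membrane is a thin matrix sheet under every epithelium, made of a laminin network and a type IV collagen network that nidogens and heparan sulfate proteoglycans tie together. Laminins are trimers of an alpha, a beta and a gamma chain. In skin, a laminin that holds the chains of Lama3 and Lamb3 is the ligand of the hemidesmosome, a junction in which the integrin of Itga6 and Itgb4 and the transmembrane collagen of Col17a1 are joined by plectin (Plec) and the epithelial form of dystonin (Dst) to keratin filaments. Anchoring fibrils of collagen VII then hold the sheet to the dermis. Hair follicle cells also secrete their own ligands into it, such as nephronectin (Npnt) and EGFL6, which mark where nerves and the arrector pili muscle attach.

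Of the 35 members that passed the filter on low counts, Nid1 rose and Abi3bp fell in the mutants (quasi-likelihood test of edgeR, Benjamini-Hochberg adjusted over 14345 genes, called at an adjusted p under 0.05, as is every adjusted p below unless another model is named). That is 5.71% of the tested members, beside 3.0% of all genes tested. The rise is 1 of 35 (2.86%) beside 2.59% of all genes, and the fall is 1 of 35 beside 0.404%, a share read from a single gene. None of Itga6, Itgb4, Col17a1, Dst, Plec and Cd151 was called by edgeR or DESeq2, and none had an unadjusted p under 0.05. The median log2 fold change was 0.04 over the tested members and -0.0033 over all genes. Lamc3, a laminin gamma chain, did not pass the filter, with 0 to 52 reads per library. Lama1, Col4a3 and Frem2 missed the threshold in this test and passed when the replicate number was added to the model as a block. With the block 5 of 35 members (14.3%) were called, beside 9.38% of all genes. Of these, 2 rose (5.71%, beside 6.09% of all genes) and 3 fell (8.57%, beside 3.29%). DESeq2 called the same 5 members and 6.87% of all genes. At an unadjusted p under 0.05, 6 members (17.1%) passed, beside 14.9% of all genes. The groups did not overlap in CPM, counts scaled to the size of the library, for 9 members (25.7%, beside 21.2% of all genes), 4 higher in the mutants (11.4%, beside 12.1%) and 5 lower (14.3%, beside 9.15%).

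Promoter windows of 3 genes are shown because their genes are among those with a call in either model, or share a start region with one. Each runs from 250 bases before to 50 bases after a RefSeq start (GRCm38.p6), 5′ to 3′ on the strand of the gene, with short motifs in capitals. The letters searched, on both strands, were GGGCGG for the GC box, CCAAT for the box of that name, TATAAA for the TATA box, TGANTCA for the AP-1 site and CANNTG for the E-box. The marked motifs do not overlap each other.
Nid1 (chr13:13437352-13437651, plus strand): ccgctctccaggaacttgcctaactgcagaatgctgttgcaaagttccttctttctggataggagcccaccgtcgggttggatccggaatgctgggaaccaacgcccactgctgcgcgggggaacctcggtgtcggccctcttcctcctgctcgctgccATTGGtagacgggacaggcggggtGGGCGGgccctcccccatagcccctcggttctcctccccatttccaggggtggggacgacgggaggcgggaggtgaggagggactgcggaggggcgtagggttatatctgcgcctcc
Col4a4 (chr1:82586800-82587099, minus strand): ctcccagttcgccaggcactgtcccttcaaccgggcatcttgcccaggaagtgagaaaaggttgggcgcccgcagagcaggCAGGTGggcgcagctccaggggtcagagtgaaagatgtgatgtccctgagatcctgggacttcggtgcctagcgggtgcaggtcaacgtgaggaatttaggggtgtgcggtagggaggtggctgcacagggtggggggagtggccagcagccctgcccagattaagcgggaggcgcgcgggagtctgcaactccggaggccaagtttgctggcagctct
Frem2 (chr3:53657306-53657605, minus strand): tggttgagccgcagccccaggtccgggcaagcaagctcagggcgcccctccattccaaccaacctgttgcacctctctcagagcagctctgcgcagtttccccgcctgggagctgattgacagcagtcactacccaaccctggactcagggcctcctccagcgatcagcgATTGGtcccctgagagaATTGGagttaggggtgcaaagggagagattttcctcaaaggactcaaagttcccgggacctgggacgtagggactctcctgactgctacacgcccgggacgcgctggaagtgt
The Nid1 window holds 1 GC box and 1 CCAAT box, the Frem2 window 2 CCAAT boxes and the Col4a4 window 1 E-box. Among 32851 windows of this length in the RefSeq table, 35.7% hold a GC box, 37.4% a CCAAT box, 13.6% a TATA box, 7.81% an AP-1 site and 72.3% an E-box. CG dinucleotides numbered 20 in the Nid1 window, 14 in the Col4a4 window and 13 in the Frem2 window, against a median of 7 over all windows. The Col4a4 window also covers the annotated start of Col4a3, which runs the other way from base 179 of the window, 72 bases from the Col4a4 start at base 251. Of the 36 members, 24 were matched to 31 windows. Windows of Abi3bp, Lama1 and Col4a3 itself were not used here.

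Hair follicle identity was first checked on markers. The follicle genes Sox9, Lhx2 and Krt17 were read in every library, at 392 to 925 CPM for Sox9 in the mutants against 363 to 746 CPM in the controls. Ly6a, which encodes the interfollicular surface marker Sca1, was at 1.00 to 1.49 CPM in the mutants and 0.502 to 1.31 CPM in the controls. Other interfollicular markers were high. Krt1 was at 1571 to 2574 CPM in the mutants and 2523 to 4022 CPM in the controls. Krt10 was at 731 to 1278 CPM in the mutants and 1257 to 1520 CPM in the controls. Markers of both kinds were thus read, and they do not settle follicle identity. Of the 8 follicle markers, Lgr5 and Nfib fell in the mutants (adjusted p = 0.0125 and 0.0396), and the list summed to 3200 to 3617 CPM in the mutants and 3884 to 3956 CPM in the controls. The 6 interfollicular markers summed to 2577 to 4232 CPM in the mutants and 4015 to 5499.6 CPM in the controls. None was called without the block or by DESeq2, and 3 of 6 had an unadjusted p under 0.05. With the block Krt1 fell (-0.66, adjusted p = 0.00154) and Krtdap rose (0.62, adjusted p = 0.00578). Krt5 (0.31, adjusted p = 0.0476) and Cdh1 (0.40, adjusted p = 0.0456) of the epithelial markers also rose with the block. Of the follicle list, the block called Shh as a further fall (-0.74, adjusted p = 0.0056) beside Lgr5 and Nfib. Krt17 of that list went the other way and rose with the block (0.72, adjusted p = 0.00366). The part of these markers in the results was not tested. The protocol text describes staining for EpCAM, Sca1 and α6-integrin and gives the gate of Sca1-positive interfollicular epidermis alone, so the gate of these libraries is not known here, and the level of Itga6, a member, may have been part of how cells were chosen. The targeted gene Ring1 stood at 3.23, 7.10 and 4.88 CPM in the mutants, against 16.8, 22.1 and 21.1 CPM in the controls (log2 fold change -1.98, SE 0.33, adjusted p = 0.0113). Rnf2, which encodes Ring1b, was at 67.1 ± 3.68 CPM in the mutants and 59.8 ± 6.93 CPM in the controls (SD, n = 3 each) and was not called; it overlaps Trmt1l on the opposite strand. Library totals ran from 15661124 to 17278824 counts in the mutants and from 14335156 to 18811587 counts in the controls. In bulk libraries, fewer cells of a kind and less RNA per cell cannot be told apart.

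**Figure D1:**
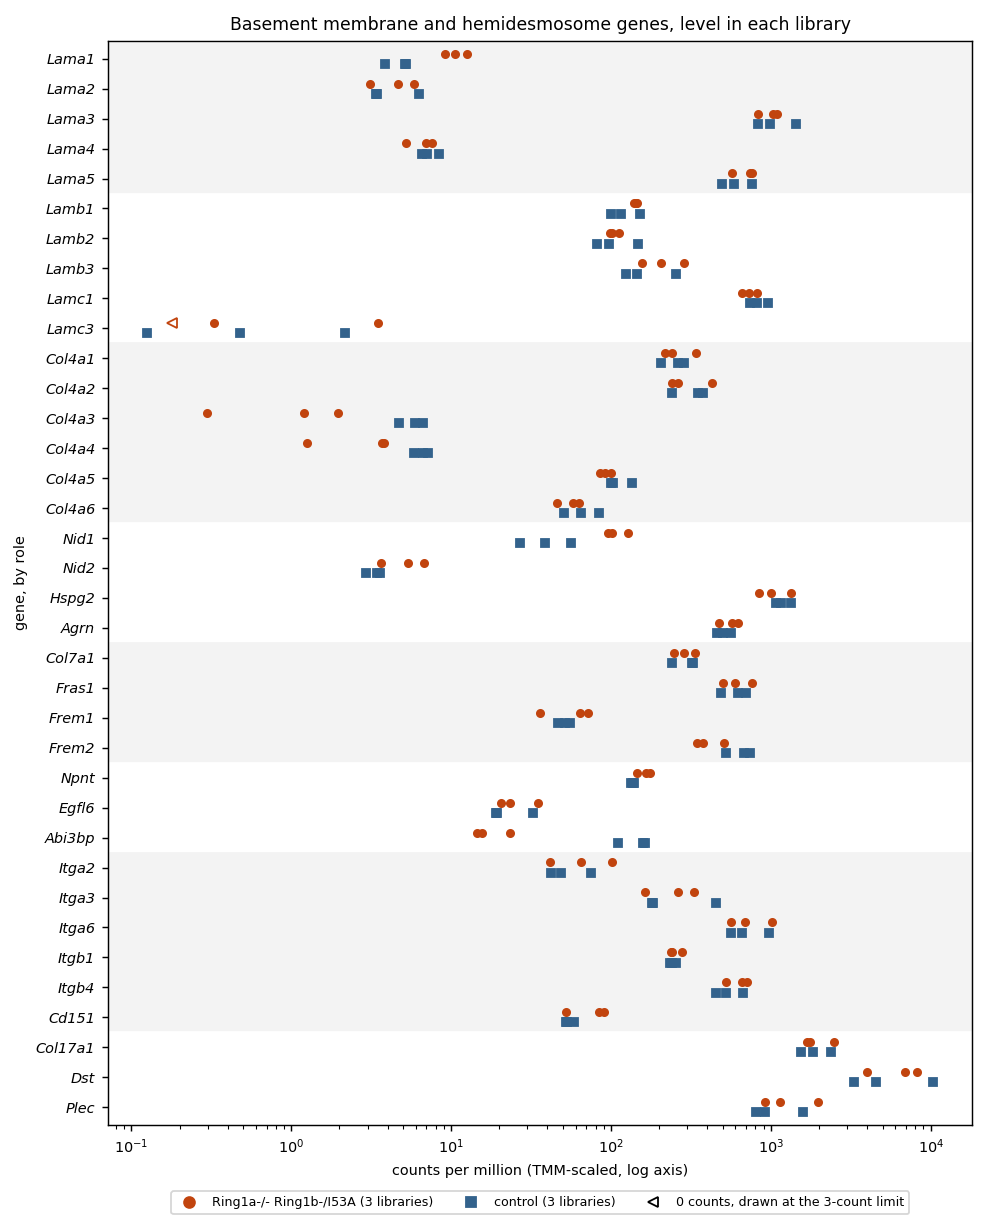
Level of each of the 36 genes in CPM (log axis), 1 point per library, I53A mutants as circles above controls as squares, genes grouped by role in shaded blocks. The groups of 27 genes overlap and those of 9, among them Nid1 and Abi3bp, do not, and the open triangle stands for the mutant library with 0 Lamc3 reads.

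No laminin gene was called in the main test. Lama3, which encodes the alpha chain of the hemidesmosome ligand, was at 1034, 827 and 1092 CPM in the mutants and 983, 831 and 1430 CPM in the controls. The groups overlapped, and the highest control library lay above all mutants (log2 fold change -0.14, SE 0.21, 95% interval -0.61 to 0.34, adjusted p = 0.846). Lamb3, the beta chain of the same trimer, was at 204, 156 and 285 CPM in the mutants and 145, 123 and 256 CPM in the controls. It also overlapped between groups (0.30, SE 0.29, interval -0.36 to 0.96, adjusted p = 0.731). Neither gene passed the test, and their intervals allow changes of up to 0.96 on the log2 scale.

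The chains of the other epithelial laminins were not called either. Lama5, Lamb1, Lamb2 and Lamc1 had overlapping groups and log2 fold changes between -0.19 and 0.22. Lama5, the alpha chain of laminins found under most epithelia, averaged 692 ± 104 CPM in the mutants and 613 ± 135 CPM in the controls (SD, n = 3 each). Lamc1, the gamma chain shared by most laminins, averaged 737 ± 76.4 CPM in the mutants and 839 ± 112 CPM in the controls. Chain balance was also compared within libraries, where scaling cancels. The ratio of Lama5 to Lama3 counts was 0.718, 0.692 and 0.696 in the mutants, against 0.597, 0.592 and 0.531 in the controls. The ratio was higher in every mutant library, by 0.29 on the log2 scale (exact permutation test, two-sided, p = 0.1, the smallest that 3 against 3 allows, adjusted p = 0.45 over 6 ratios). The ratio of Lamb3 to Lamb1 counts was 1.42, 1.12 and 1.96 in the mutants and 1.46, 1.06 and 1.70 in the controls (exact permutation test, p = 0.8). It did not separate the groups.

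Lama1, the alpha chain of the earliest embryonic laminin, was low but higher in every mutant library. It was at 12.5, 10.6 and 9.09 CPM in the mutants, against 5.18, 5.21 and 3.86 CPM in the controls, from 136 to 228 reads per mutant library and 68 to 83 reads per control library. The groups did not overlap, and each mutant library was 2.03 to 2.41 times the control library of the same number. The gene did not pass the main test (log2 fold change 1.17, SE 0.31, interval 0.49 to 1.86, adjusted p = 0.0817) but passed with the replicate block (1.17, adjusted p = 0.0344). Lama2 and Lama4, alpha chains of muscle and of vessel walls, were at 3.10 to 7.57 CPM in the mutants and 3.41 to 8.45 CPM in the controls, with overlapping groups. Per kilobase of exon, mean Lama1 remained far under the main alpha chains, at 1.11 CPM per kilobase in the mutants and 0.491 in the controls, beside 91.6 in the mutants for Lama3 and 60.7 for Lama5.

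Among the type IV collagens, the chains of the common networks were not called. Col4a1 and Col4a2, whose products form the network of nearly all basement membranes, were at 217 to 427 CPM in the mutants and 206 to 375 CPM in the controls over both genes. Their log2 fold changes were 0.07 (SE 0.20) and -0.05 (SE 0.24). Col4a5 and Col4a6, whose products form another network of skin basement membranes, were not called. Col4a5 was at 100.1, 85.3 and 91.7 CPM in the mutants and 103, 101 and 134 CPM in the controls. Its groups were separate by less than 1 CPM (log2 fold change -0.29, SE 0.17, interval -0.67 to 0.09, adjusted p = 0.496). Col4a6 averaged 55.7 ± 8.57 CPM in the mutants and 66.7 ± 16.7 CPM in the controls, and its groups overlapped. The ratio of Col4a5 to Col4a1 counts averaged -1.50 in the mutants and -1.16 in the controls on the log2 scale (difference -0.34, exact permutation test, two-sided, p = 0.3).

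Col4a3 and Col4a4, known for the collagen network of the kidney glomerulus, were scarce in the controls and lower still in the mutants. Col4a3 (chromosome 1, 82586921 to 82722059, plus strand) had 36, 5 and 18 reads in the mutants, against 87, 106 and 83 reads in the controls. These are 1.97, 0.298 and 1.20 CPM in the mutants, against 5.93, 6.65 and 4.71 CPM in the controls. Every mutant library lay under every control, and the mean was 20.1% of the control mean. The gene missed the threshold in the main test (log2 fold change -2.30, SE 0.63, adjusted p = 0.0917) and passed with the replicate block (-2.50, adjusted p = 0.0397). Its divergent neighbour Col4a4, given in full after its values were seen, was at 3.78, 1.25 and 3.68 CPM in the mutants, against 5.86, 7.15 and 6.64 CPM in the controls. The groups did not overlap here either, and no test called it (-1.17, SE 0.47, adjusted p = 0.271, and 0.128 with the block). The same mutant library, number 2, was the lowest for both genes of the pair. C430014B12Rik overlaps 563 bases of Col4a3 exons on the opposite strand, and whether reads were counted by strand is not given, so the values of Col4a3 are uncertain to that extent.

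Nid1 encodes nidogen-1, the rod that binds the laminin network to type IV collagen and perlecan, and it was the 1 member that rose. Nid1 (chromosome 13, 13437551 to 13512269, plus strand, GRCm38) had 1759, 1709 and 1908 reads in the mutants, against 397, 616 and 989 reads in the controls. That is 96.4, 102 and 128 CPM in the mutants and 27.1, 38.7 and 56.1 CPM in the controls. The lowest mutant library stood well above the highest control. Gm48682 overlaps 143 bases of Nid1 exons on the opposite strand. The mean was 109 ± 16.6 CPM in the mutants and 40.6 ± 14.6 CPM in the controls (SD, n = 3 each), which is 1.42 on the log2 scale (SE 0.26, interval 0.84 to 2.0, adjusted p = 0.0187). Libraries of the same number differed 3.56-fold, 2.64-fold and 2.27-fold, and the block gave an adjusted p of 0.000703. The call depended on single libraries: it was lost without mutant 2 (adjusted p = 0.0684), mutant 3 (0.0527), control 1 (0.0632) or control 2 (0.0825), while the log2 fold change ran from 1.19 to 1.73. Nid2, which encodes the related nidogen-2, was at 3.62, 6.80 and 5.35 CPM in the mutants and 2.93, 3.45 and 3.58 CPM in the controls. It was higher in every mutant library but not called (0.66, SE 0.40, adjusted p = 0.515), and Rtraf overlaps 437 bases of its exons on the other strand. The ratio of Nid1 to Nid2 counts was 26.7, 15.0 and 23.9 in the mutants and 9.23, 11.2 and 15.7 in the controls (log2 difference 0.85, exact permutation test, two-sided, p = 0.2). The proteoglycan genes were not called. Hspg2, which encodes perlecan, averaged 1059 ± 249 CPM in the mutants and 1189 ± 131 CPM in the controls, and Agrn, which encodes agrin, averaged 558 ± 74.8 CPM in the mutants and 507 ± 52.3 CPM in the controls, neither called.

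Abi3bp encodes a secreted matrix protein named for its binding to the adaptor ABI3, and it showed the largest change of the list. Abi3bp (chromosome 16, 56477878 to 56690135, plus strand) had 427, 263 and 217 reads in the mutants, against 1617, 2538 and 2867 reads in the controls. That is 23.4, 15.7 and 14.5 CPM in the mutants, against 110.2, 159 and 163 CPM in the controls. The highest mutant library was far under the lowest control. The mean fell to 17.9 ± 4.84 CPM in the mutants, against 144 ± 29.4 CPM in the controls (SD, n = 3 each), which is 12.4% of the control level (log2 fold change -3.01, SE 0.25, interval -3.57 to -2.45, adjusted p = 0.000415). It was called without any 1 library and in each other model run. Per kilobase of exon it held 2.41 CPM in the mutants and 19.4 CPM in the controls, so that in controls it stood near Lamb2 (17.8) and Col4a5 (16.8), and in mutants between Frem1 (4.10) and Lama1 (1.11). Such levels per kilobase rest on the summed exon length of GENCODE models and are descriptions only.

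The other secreted ligands of the follicle were not called. Npnt, which encodes nephronectin, a ligand of integrin α8β1 that the bulge deposits for the arrector pili muscle, was at 165, 145 and 177 CPM in the mutants and 133, 138 and 139 CPM in the controls. It was higher in every mutant library by a small margin (log2 fold change 0.25, SE 0.14, interval -0.08 to 0.57, adjusted p = 0.491). Egfl6, whose product serves touch-sensing nerve endings around the upper follicle, was at 23.2, 34.8 and 20.5 CPM in the mutants and 19.4, 19.0 and 32.3 CPM in the controls. Its groups overlapped (0.15, SE 0.29, adjusted p = 0.876).

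**Figure D2:**
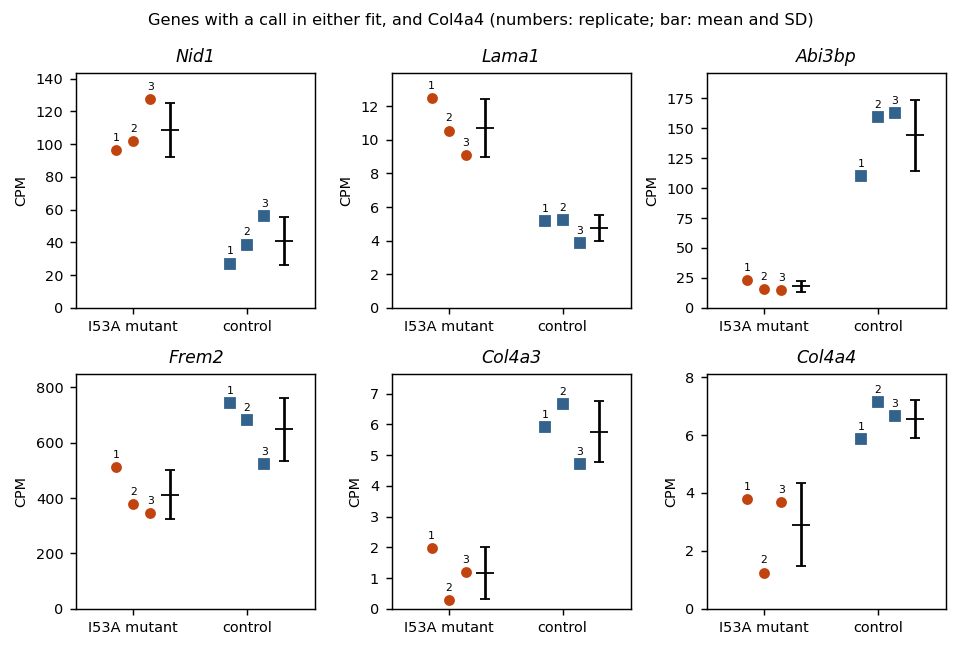
CPM of Nid1, Lama1, Abi3bp, Frem2, Col4a3 and Col4a4 in each library (points, numbered by replicate), I53A mutants left and controls right, with the mean and SD of 3 libraries beside each group. No gene has overlapping groups, and Abi3bp has the widest gap, with mutants at 14.5 to 23.4 CPM and controls at 110.2 to 163 CPM.

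The genes of the anchoring fibril and of the Fraser complex, a set of large proteins that hold the embryonic epidermis to the dermis, held 1 member whose groups did not overlap. Col7a1, the collagen of the anchoring fibril, was at 336, 247 and 285 CPM in the mutants and 324, 241 and 319 CPM in the controls. The groups overlapped, and the interval of the log2 fold change ran from -0.42 to 0.36 (adjusted p = 0.970). Frem2, a Fraser complex gene, was at 512, 377 and 347 CPM in the mutants, against 743, 680.2 and 522 CPM in the controls. Every mutant library was under every control, though the margin between mutant 1 and control 3 was under 10 CPM. The mean was 63.5% of the control mean (log2 fold change -0.65, SE 0.20, adjusted p = 0.127), and the gene passed with the replicate block (-0.66, adjusted p = 0.00354) or without control 3 (-0.78, adjusted p = 0.0453). Its partners were not called. Fras1 averaged 619 ± 134 CPM in the mutants and 603 ± 109 CPM in the controls, and Frem1 averaged 57.3 ± 18.9 CPM in the mutants and 51.0 ± 4.58 CPM in the controls, with log2 fold changes of 0.04 and 0.17 and neither called.

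The hemidesmosome genes included the 2 highest members per length and carried no call. Col17a1, its transmembrane collagen, was at 1758, 1689 and 2493 CPM in the mutants and 1828, 1552 and 2383 CPM in the controls. The groups overlapped nearly completely (log2 fold change 0.04, SE 0.21, interval -0.43 to 0.52, adjusted p = 0.957). Itga6 was at 685, 564 and 1019 CPM in the mutants and 662, 559.6 and 979.8 CPM in the controls. As a gene of the sort it is given as a description, with a log2 fold change of 0.04. Its partner Itgb4 was at 663, 523 and 709 CPM in the mutants and 527, 453 and 665 CPM in the controls (0.20, SE 0.18, interval -0.21 to 0.62, adjusted p = 0.696). The groups of Itgb4 overlapped, and the ratio of Itgb4 to Itga6 counts, 0.967, 0.928 and 0.695 in the mutants and 0.796, 0.810 and 0.679 in the controls, did not separate them (exact permutation test, two-sided, p = 0.3).

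The linkers on the cell side varied more between libraries than between groups. Dst, the most deeply read member, was at 6920, 4001 and 8252 CPM in the mutants and 4545, 3304 and 10355 CPM in the controls. Its controls spanned the whole range of the mutants (log2 fold change 0.07, SE 0.40, interval -0.82 to 0.97, adjusted p = 0.962). Dst also has neuronal and muscle forms, which counts per gene do not separate from the epithelial one. Plec was at 1149, 914 and 1967 CPM in the mutants and 913, 808 and 1583 CPM in the controls. It overlapped between groups as well (0.29, SE 0.32, interval -0.42 to 1.00, adjusted p = 0.766, and 0.0789 with the block). Cd151, a tetraspanin that stabilises laminin-binding integrins, was at 52.1, 90.8 and 83.9 CPM in the mutants and 52.9, 52.0 and 58.4 CPM in the controls. Mutants 2 and 3 were above the controls while mutant 1 was among them (0.47, SE 0.22, adjusted p = 0.361).

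The integrins that act outside the hemidesmosome were not called. Itgb1, the beta subunit of most matrix receptors, had the narrowest interval of the list, with 252 ± 22.2 CPM in the mutants and 245 ± 10.8 CPM in the controls (log2 fold change 0.04, interval -0.27 to 0.35). Itga3, which pairs with it as a laminin receptor, was at 164 to 328 CPM in the mutants and 180.4 to 457 CPM in the controls. Itga2, the collagen receptor chain, was at 41.3 to 101 CPM in the mutants and 42.0 to 75.0 CPM in the controls. The ratio of Itga3 to Itga6 counts averaged -1.60 in the mutants and -1.53 in the controls on the log2 scale (exact permutation test, two-sided, p = 0.8).

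**Figure D3:**
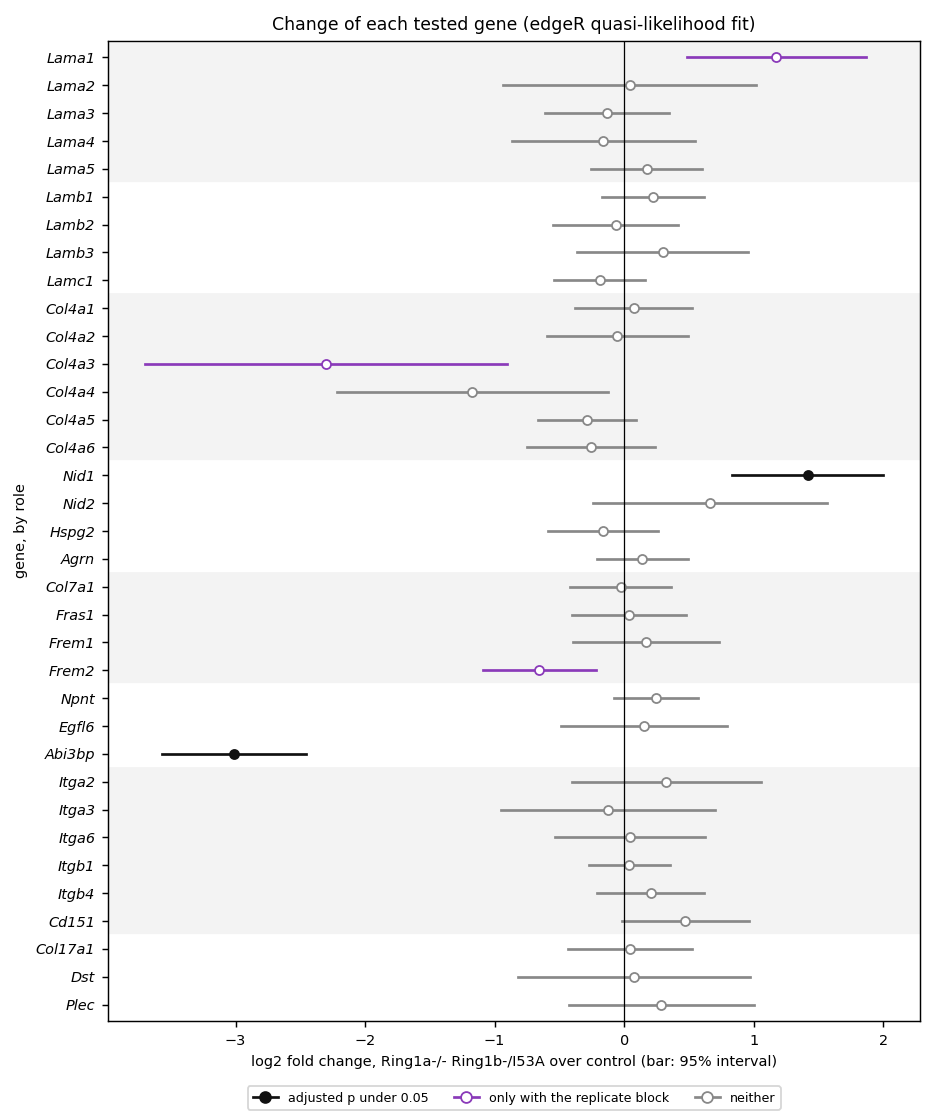
Log2 fold change of the 35 tested genes, I53A mutants over controls, with 95% intervals from the edgeR quasi-likelihood fit and shading by role. Filled points passed at an adjusted p under 0.05 (Nid1 at 1.42 and Abi3bp at -3.01), purple open points passed with the replicate block and not without it (Lama1, Col4a3 and Frem2), and the intervals of all other genes but Col4a4 include 0.

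Levels of different genes were compared per kilobase of exon. Col17a1 stood highest in both groups, at 329 ± 74.1 CPM per kilobase in the mutants and 319.6 ± 70.4 in the controls. Dst was second (155 and 147), although its summed exon length of 41155 bases counts all its forms. Lama3, Lamc1, Itga6, Itgb4, Plec and Hspg2 followed in both groups, at 74.0 to 91.6 CPM per kilobase in the mutants and 60.8 to 101 in the controls. At the other end stood Lama2, Lama4, Lamc3, Col4a3 and Col4a4, each under 1 CPM per kilobase in both groups. Nid1 was 22nd of the 36 genes by this measure in the mutants and 28th in the controls, and Abi3bp was 29th in the mutants and 21st in the controls.

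Much of the variation in this list lay between libraries of 1 group. The libraries numbered 3 were the highest of their group, in both groups at once, for 20 of the 35 tested members (57.1%), beside 20.4% of all genes tested. These 20 included Dst, Plec, Col17a1, Itga6, Itgb4, Itga3, Lama3, Lamb3 and Hspg2. Over the tested members, library 3 exceeded the mean of the other libraries of its group by a median of 0.23 on the log2 scale in the mutants and 0.35 in the controls, against -0.05 and -0.04 over all genes. For Agrn, Col7a1, Frem1 and Frem2, 4 of 35 (11.4%, beside 12.7% of all genes), library 1 was the highest in both groups. The summed level of the epithelial markers Epcam, Krt5, Krt14, Itga6, Cdh1 and Trp63 was also highest in library 3 of each group, at 18973 CPM against 13645 and 14340 CPM in the mutants, and 15152 CPM against 12464 and 12363 CPM in the controls. Most of that sum was Krt5, and Itga6 is also a member. Each of these markers was highest in library 3 of both groups, though Trp63 was nearly level in the mutants (1560, 1562 and 1565 CPM). The part of this difference between libraries in the results was not tested. Without both libraries numbered 3, a check added after the data were seen, 3 members were called, Nid1 (adjusted p = 0.00111), Abi3bp (0.000145) and Frem2 (0.0457), and no hemidesmosome gene was. That fit called 772 of all genes, beside 430 in the main fit, so calls rose over all genes too.

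**Figure D4:**
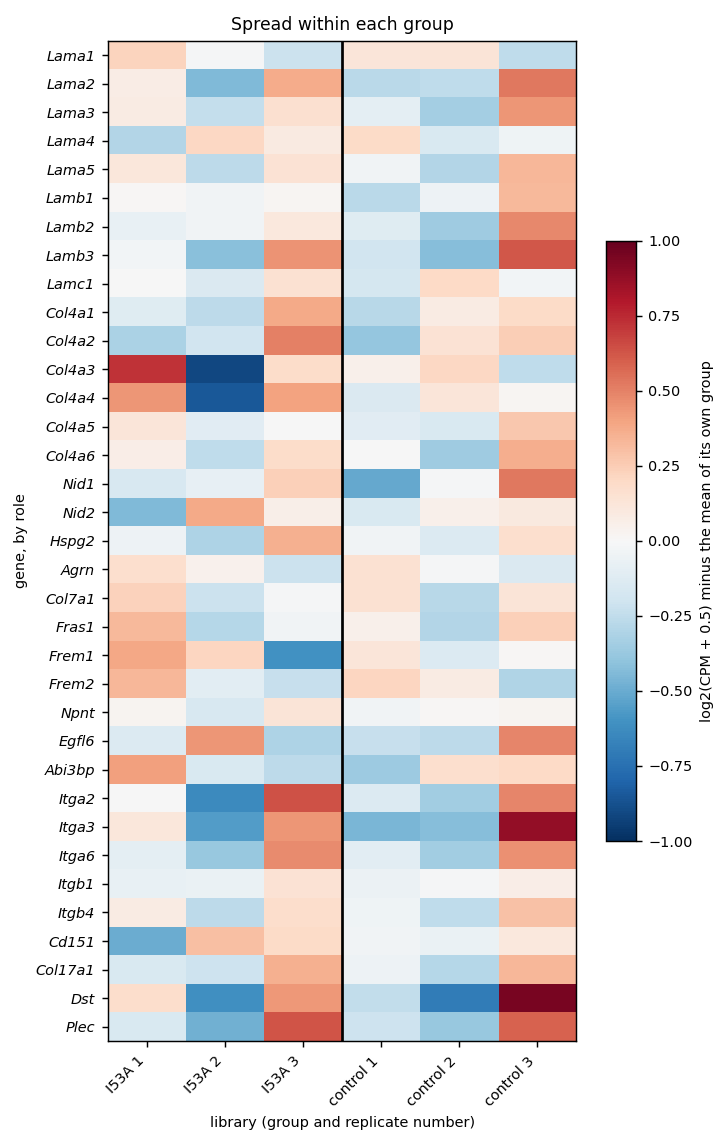
Deviation of each tested gene from the mean of its own group, as log2(CPM + 0.5), in the 3 I53A mutant libraries left and the 3 control libraries right (red higher, blue lower). Hemidesmosome and laminin genes are mostly red in library 3 of both groups, the pattern shared by 20 of the 35 genes.

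Genes of the same matrix outside the list were counted beside it. Of 30 tested further basement membrane components and matrix partners (34 listed), 2 rose (2.59% of all genes did) and none fell (0.404% of all genes), with a median log2 fold change of 0.15. With the replicate block 6 rose and 3 fell (6.09% and 3.29% of all genes), DESeq2 called 9 (6.87% of all genes), and 11 had an unadjusted p under 0.05 (14.9% of all genes). The same shares of all genes apply to the lists that follow. Col18a1, a collagen of epithelial and vessel basement membranes, was at 180.3, 197 and 264 CPM in the mutants, against 96.3, 93.4 and 101 CPM in the controls (1.14, SE 0.17, adjusted p = 0.00814). Fbln2, a fibulin that binds laminin and nidogen, was at 173, 167 and 182 CPM in the mutants, against 90.7, 90.5 and 87.4 CPM in the controls (0.96, SE 0.14, adjusted p = 0.0063). Neither gene's groups overlapped, and with Nid1 they rose to 1.94 to 2.67 times the control mean. Col18a1 lost its call without control 1 (adjusted p = 0.0501), and Fbln2 kept it without any 1 library. None of 29 tested further receptors was called by edgeR (3 up and 1 down with the block, 2 by DESeq2, 9 at an unadjusted p under 0.05), with a median of 0.15. The smallest p there were those of Itga5, the fibronectin receptor chain, at 131 ± 63.8 CPM in the mutants and 62.6 ± 19.1 CPM in the controls (adjusted p = 0.141, and 0.0026 with the block), and Itga11, a collagen receptor chain (adjusted p = 0.149, and 0.0386 with the block).

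On the inside of the adhesions, 2 of 24 tested integrin adhesome genes rose and none fell, with a median log2 fold change of 0.11. Tns3, a tensin that binds integrin tails, averaged 142 ± 6.59 CPM in the mutants and 79.9 ± 9.63 CPM in the controls (0.83, SE 0.16, adjusted p = 0.0215). Tgfb1i1, a paxillin relative, averaged 63.3 ± 19.5 CPM in the mutants and 24.9 ± 7.25 CPM in the controls (1.34, SE 0.28, adjusted p = 0.0317). With the block 5 of these genes rose, DESeq2 called 2, and 6 had an unadjusted p under 0.05. Of 23 tested genes of collagen and laminin synthesis, 1 rose, Plod2, a lysyl hydroxylase of collagen, with 68.5 ± 4.72 CPM in the mutants and 35.8 ± 3.81 CPM in the controls (0.94, SE 0.17, adjusted p = 0.0196). With the block Fkbp10, a chaperone of collagen folding, also rose (1.93, adjusted p = 0.0216) and Tll1, a protease that trims procollagens, fell (-1.06, adjusted p = 0.0106), both named after their values were seen. In that list DESeq2 called 3, and 5 had an unadjusted p under 0.05. The calls of Tns3, Tgfb1i1 and Plod2 without the block depended on single libraries. Tns3 lost its call without any 1 library other than control 3 (adjusted p 0.0546 to 0.111), Tgfb1i1 without mutant 2, mutant 3, control 1 or control 2 (0.0804 to 0.137), and Plod2 without mutant 1, mutant 2 or control 1 (0.0792 to 0.104). None of 20 tested matrix proteases and inhibitors was called by edgeR (2 up and 1 down with the block, 3 by DESeq2, 6 at an unadjusted p under 0.05), nor any of 8 keratin and filament partners (3 up and 1 down with the block, 2 by DESeq2, 4 at an unadjusted p under 0.05). Adamts1, a protease of proteoglycans, averaged 300.0 ± 121 CPM in the mutants and 603 ± 107 CPM in the controls (adjusted p = 0.0882, and 0.00545 with the block). Timp2, an inhibitor of matrix metalloproteinases, averaged 105 ± 12.8 CPM in the mutants and 44.5 ± 24.8 CPM in the controls (adjusted p = 0.0919, and 0.00653 with the block). Krt17, a keratin of the follicle, was at 348 ± 84.2 CPM in the mutants and 208 ± 23.1 CPM in the controls (adjusted p = 0.0766, and 0.00366 with the block), while Krt6a, a keratin of stressed epidermis and the follicle, was at 23.0, 40.4 and 399.8 CPM in the mutants and 3.20, 2.07 and 16.9 CPM in the controls (adjusted p = 0.0822, and 0.000178 with the block).

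Nidogen, fibulin and Abi3bp are also made by dermal and vessel cells, so markers of those cells were read beside them. No marker of dermal fibroblasts, dermal papilla, endothelium, pericytes and smooth muscle, melanocytes, Schwann cells, immune cells or adipocytes was called by edgeR without the block, of 37 tested, while DESeq2 called 3 and 4 had an unadjusted p under 0.05. With the replicate block 1 rose, Trps1 of the dermal papilla list (log2 fold change 1.12, adjusted p = 0.00656), and 1 fell, Cd68 of the immune list (-0.76, adjusted p = 0.0190). The 8 fibroblast markers summed to 657 to 932 CPM in the mutants and 594 to 1028 CPM in the controls. The 8 endothelial markers summed to 12.9 to 32.3 CPM in the mutants and 9.61 to 16.4 CPM in the controls, and 3 of them passed the filter on low counts. Of the others, Kdr had 26, 10 and 59 reads in the mutants and 8, 2 and 9 in the controls, Emcn 6, 4 and 21 in the mutants and 0, 0 and 2 in the controls, and Tie1 6, 19 and 33 in the mutants and 1, 3 and 0 in the controls. These 3 vessel genes were higher in every mutant library and were not tested. Pecam1, Cdh5, Flt1, Cldn5 and Plvap of the same list had overlapping groups. Mean Pecam1 was 5.86 CPM in the mutants and 5.74 CPM in the controls, and mean Cldn5 was 0.288 CPM in the mutants and 0.386 CPM in the controls. Means of the remaining genes were higher in the mutants. Cdh5 averaged 7.50 CPM in the mutants and 4.50 CPM in the controls, Flt1 2.38 and 1.23 CPM, and Plvap 0.285 and 0.161 CPM. The 8 pericyte and smooth muscle markers summed to 314 to 474 CPM in the mutants and 226 to 340.0 CPM in the controls. Most of this was Cspg4 (means 199 CPM in the mutants and 149 CPM in the controls) and Notch3 (149 and 119 CPM). Myh11 was lower in every mutant library (means 1.72 and 4.87 CPM, DESeq2 adjusted p = 0.0280). The groups of every other marker of that list overlapped. The 8 dermal papilla markers summed to 166 to 224 CPM in the mutants and 65.7 to 154 CPM in the controls, nearly all of it Trps1, and Fgf10 was at 0 in 1 mutant and 1 control library. Crabp1 was low, at 2.47, 4.05 and 1.34 CPM in the mutants and 0.545, 1.19 and 0.511 CPM in the controls. Its log2 fold change was 1.80 (edgeR unadjusted p = 0.0258, adjusted p = 0.243). Trps1 and Crabp1 were higher in every mutant library, and the other dermal papilla markers had overlapping groups. The immune sums ran from 32.2 to 43.8 CPM in the mutants and from 57.5 to 86.2 CPM in the controls. Cd68 (means 21.6 CPM in the mutants and 36.7 CPM in the controls) and Cd74 (14.6 and 28.1 CPM) made up most of them. The groups of Cd74 overlapped. Cd207 and Cd3e were at 0 in all mutant libraries, and had 0, 0 and 6 reads and 1, 0 and 0 reads in the controls. Melanocyte, Schwann cell and adipocyte markers summed to 2.52 to 58.4 CPM in the mutants and 6.54 to 47.7 CPM in the controls. The fibroblast and melanocyte ranges overlapped between groups, the dermal papilla and immune ranges did not, and the part of these cells in the changes of Nid1 and Abi3bp was not tested.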

How the data were processed

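RNA from sorted newborn skin cells, labelled as hair follicle cells, was measured in 6 libraries. Per the labels' protocols, low-input RNA was amplified before sequencing as single reads, which can distort levels. For each library the authors deposited a table of whole-number read counts by gene symbol, without normalization. The submitters' processing notes name HTSeq 0.6.1, TopHat2 2.0.13, DESeq2 1.6.3 and Cufflinks 2.2.1 and the build mm10, with no role or order. Their annotation release and strand setting are not given, so genes overlapping on opposite strands may share reads. Besides the genes for which this is given above, it applies to Itgb4 (537 bases of exons), Lama3 (197), Cd151 (193) and Dst (1037 with Gm26788). Exons of Lama2, Lamc3, Fras1, Col4a1 and Col4a2 also have such overlaps.

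The main test was quasi-likelihood (edgeR 4.0.16, R 4.3.3, TMM factors, filterByExpr with a minimum count of 10, group as the only term, two-sided, Benjamini-Hochberg adjustment over the 14345 genes kept). The filter removed 0.0971% of counts. CPM was computed on TMM-scaled library sizes, by which 1 CPM is 14.7 to 18.2 reads and a count of 0 allows up to 3 counts, or 0.164 to 0.204 CPM. Such limits cover counting error only. SE was taken from the F statistic. Ratios of members were tested by exact permutation over samples. Alternatives were DESeq2-type size factors, library totals, no filter, a minimum count of 30, DESeq2 1.42.0, limma-voom (limma 3.58.1), the replicate block and each library left out. The steps were tested on simulated data. No pair of libraries agreed within sampling noise (smallest chi-square over its degrees of freedom 25.1).

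Both groups carry replicate numbers 1 to 3 with no stated meaning. Deviations from the group means correlated at 0.205, 0.168 and 0.363 for same-numbered libraries and at most 0.0891 for other pairs, so the pairing was taken from the data, by a minimum of 0.1. The p-values with the block depend on this choice, made on the same counts, and may be too small. Blocked values stand beside named genes and lists whose calls they change.

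All 36 members are named. Full values are given for members called in either model, those without overlap between groups at 10 CPM or more in the higher group, the hemidesmosome core, Lama3, Lamb3 and Col7a1. From other lists up to 4 called genes are named, or the 2 with the smallest p. Members and lists were chosen with earlier results of these data known. From the lists outside the members, 1 result is not reported here. Coordinates and exon lengths are from GENCODE M21 (GRCm38, the assembly of mm10).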

Additional observations from a re-analysis of the deposited data

How the results depend on the processing

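Abi3bp kept its direction and call in every alternative run, with log2 fold changes from -3.25 to -2.77, and Nid1 kept its direction, from 1.19 to 1.73. Members called numbered 2 and genes called 430. DESeq2 called 5 members (2 up and 3 down) and 986 genes, the replicate block 5 members (2 up and 3 down) and 1345 genes, and without the filter on low counts 2 members fell in place of 1, as Col4a3 then passed. Leaving out 1 library, or both libraries numbered 3, gave 163 to 772 genes, 1 to 3 members, 0 to 1 members up and 1 to 2 members down. The fits without mutant 2, mutant 3, control 1 or control 2 held no member that rose, and those without control 3, or without both libraries numbered 3, also called Frem2. Genes called fell to 163 without mutant 2, 193 without control 1, 218 without mutant 1 and 277 without control 2, and rose to 664 without control 3. Lama1 was also called by DESeq2 (adjusted p = 0.00922). The block ended no call of a member.

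Several uncalled members changed sign when libraries were left out of the fit without the block. Leaving out 1 library breaks a same-numbered pair, while leaving out both libraries numbered 3 does not. Lama3 (0.0455) and Lamb2 (0.165) changed sign in the latter fit too. Within same-numbered pairs Plec and Itga6 were higher in each mutant library (block log2 fold changes 0.27 and 0.04, adjusted p = 0.0789 and 0.828). With libraries left out, the log2 fold changes ran from -0.18 to 0.41 for Lama2, -0.30 to 0.13 for Lama3, -0.24 to 0.22 for Lamb2, -0.14 to 0.20 for Col4a1, -0.35 to 0.10 for Col4a2, -0.15 to 0.0743 for Col7a1, -0.14 to 0.20 for Fras1, -0.0285 to 0.43 for Frem1 and -0.11 to 0.60 for Egfl6. They ran from -0.0599 to 0.62 for Itga2, -0.37 to 0.47 for Itga3, -0.24 to 0.32 for Itga6, -0.0368 to 0.0847 for Itgb1, -0.16 to 0.24 for Col17a1, -0.23 to 0.72 for Dst and -0.10 to 0.65 for Plec. With library totals only, Col7a1 was at 0.0228. The log2 differences of the ratios Lamb3 to Lamb1 and Itga3 to Itga6 ran from -0.13 to 0.27 and from -0.25 to 0.14. The cause of these changes was not tested. At 3 libraries a group, members such as Dst and Itga3 have intervals that allow changes of up to 0.97 and -0.95 on the log2 scale.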
